A study of Mus musculus with 12 samples.

Results

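The 10 genes described here encode receptors of the tumour necrosis factor (TNF) receptor superfamily that are known in T cells, namely *Tnfrsf9*, *Tnfrsf4*, *Tnfrsf18*, *Tnfrsf1a*, *Tnfrsf1b*, *Tnfrsf8*, *Tnfrsf25*, *Tnfrsf26*, *Cd27* and *Fas*. They were chosen by name from 24439 genes, and all 10 were among the 12442 genes above 1 TPM (transcripts per 1000000, a length-corrected share of all transcripts) in at least 1 library. RNA-Seq was done in mouse CD4 T blast cells (TB), which are dividing CD4 T cells that were taken from the spleen of C57BL/6 C42 mice (back-crossed to C57BL/6J) and activated with 2 ug/ml concanavalin A for 40 h. All groups carry the C42 transgene, a fragment of the human *IL3/CSF2* locus, and the age of the mice is not given in the sources used here. Libraries fell into 4 groups of 3. After 30 h in IL-2 at 50 U/ml, TB IL-2 cells stayed in IL-2 for 16 h more (2 days of IL-2 by the labels), TB IL-2nil cells were held without it for those 16 h, and TB+ IL-2 and TB+ IL-2nil cells had grown in these 2 ways and then received 2 h of 20 ng/ml PMA and 2 uM calcium ionophore (PMA/I), which together imitate signalling from the T cell receptor. No source says which libraries came from separate mice or cultures, so P-values measure the spread between these libraries, which may be technical.

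The labels of 2 libraries go against the study's own gene table. The values listed there under TB IL-2nil replicate 3 were met for 98.4% of 1391 genes by the library labelled TB+ IL-2 replicate 3, and those under TB+ IL-2 replicate 3 for 99.9% by the library labelled TB IL-2nil replicate 3, each to within 0.1%. The libraries of the same label met 0% of them. Both libraries were therefore placed in each other's group. These matches were not made on the FPKM values as they stand. The values were first rescaled to TPM over the genes kept and then quantile normalized, which gives all libraries the same set of values. The main fits below did not use quantile normalization, and calls that change with it are given with the genes concerned. For each comparison the counts of receptors that passed are also given by sample label and without both libraries. For single genes and for the other gene lists these settings are given for some of the comparisons only. The files hold FPKM values and no counts, so the absolute depth is unknown. The relative depth, read from the steps between low values, lay between 0.409 and 1.25 times that of the median library, and the lowest was TB IL-2nil replicate 2.

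Receptors of this superfamily are bound by TNF-like ligands, most of them trimers on the surface of other cells. Most members without a death domain recruit TRAF adaptors and lead to NF-kB, and in T cells they act as costimulators that support division and survival after the T cell receptor has been engaged. Members with a death domain, such as Fas and TNF receptor 1, can also recruit FADD or TRADD and start caspase-8. IL-2, the growth factor of activated T cells, signals through STAT5.

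Of the 10 genes, 6 lie on chromosome 4 (mm9, GENCODE M1 gene models). *Tnfrsf4* is at chr4:155387952-155390721 and *Tnfrsf18* at chr4:155400273-155403004, both on the plus strand and 9551 bp apart, and *Tnfrsf1b* (chr4:144803366-144836773) and *Tnfrsf8* (chr4:144857040-144905067) are also neighbours, on the minus strand. *Tnfrsf9* is at chr4:150288671-150320211 and *Tnfrsf25* at chr4:151490043-151494228, both on the plus strand. *Cd27* (chr6:125182640-125187028, minus strand) and *Tnfrsf1a* (chr6:125299380-125312502, plus strand) share chromosome 6. *Tnfrsf26* (chr7:150793568-150813858, minus strand) lies in a cluster with its close relatives *Tnfrsf22* and *Tnfrsf23*, and how reads shared among such copies were divided was not checked, so its level is less certain. *Fas* is at chr19:34365149-34402260 on the plus strand.

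*Tnfrsf9*, *Tnfrsf4* and *Fas* were the 3 genes that rose with PMA/I both with and without IL-2. The sequences before their transcription starts are shown so that matches to the motifs of activation factors can be seen. They were taken from RefSeq promoters (GRCm38.p6), where 9 of the 10 genes were matched with 11 starts, and each of the 11 windows of 250 bases was found once, unchanged, on the chromosome of its gene in mm9. Bases inside an exon of GENCODE M1 were left out, which shortens the second *Tnfrsf9* window and that of *Tnfrsf4*. All are on the plus strand. The first *Tnfrsf9* window is chr4:150294014-150294263, the second is chr4:150301858-150302026, that of *Tnfrsf4* is chr4:155387720-155387803 and that of *Fas* is chr19:34364899-34365148. Capitals mark TGACTCA (AP-1, read on both strands) and TTCNNNGAA (the site bound by STAT factors).
Tnfrsf9, first start: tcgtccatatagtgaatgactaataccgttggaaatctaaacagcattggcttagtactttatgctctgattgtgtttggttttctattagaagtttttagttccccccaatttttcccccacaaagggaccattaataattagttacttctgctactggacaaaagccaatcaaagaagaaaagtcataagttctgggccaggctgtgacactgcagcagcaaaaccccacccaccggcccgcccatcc
Tnfrsf9, second start: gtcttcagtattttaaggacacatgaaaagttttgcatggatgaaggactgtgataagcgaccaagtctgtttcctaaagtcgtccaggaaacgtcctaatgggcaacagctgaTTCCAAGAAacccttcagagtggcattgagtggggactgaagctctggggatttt
Tnfrsf4: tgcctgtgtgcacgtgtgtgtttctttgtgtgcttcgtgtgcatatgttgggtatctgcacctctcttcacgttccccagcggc
Fas: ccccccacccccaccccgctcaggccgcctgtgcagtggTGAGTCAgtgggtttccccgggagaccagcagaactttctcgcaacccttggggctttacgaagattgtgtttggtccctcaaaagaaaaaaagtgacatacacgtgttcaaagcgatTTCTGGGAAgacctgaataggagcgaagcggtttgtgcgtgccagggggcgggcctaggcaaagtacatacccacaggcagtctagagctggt
In the *Fas* window the AP-1 letters begin at base -211 and the STAT letters at base -93, counted from the start. The second start of *Tnfrsf9* has STAT letters at base -136, and AP-1 letters at base -15, in the exon that is not printed. The first *Tnfrsf9* start has neither. Over the full windows, TGACTCA was found at 3 of the 11 starts (*Tnfrsf8*, *Tnfrsf9* and *Fas*) and at 4.46% of all 32851 RefSeq starts. TTCNNNGAA was found at 6 of the 11 (*Tnfrsf1a*, *Tnfrsf1b*, *Tnfrsf9*, *Tnfrsf18*, *Tnfrsf25* and *Fas*) and at 7.02% of all starts. The CRE letters TGACGTCA were at 0 of the 11 (1.55% of all starts), and the NFAT core TGGAAA was at 2 of the 11 (*Tnfrsf4* and the first start of *Tnfrsf9*) and at 18.6% of all. Both strands were read for each motif. A match describes letters in a window and was not tested against binding.

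The summed level of the 10 receptors was 539 to 571 TPM on average in the groups without PMA/I and above 1000 TPM in those with it. It was 539 ± 111 TPM (SD, n = 3) in TB IL-2, 571 ± 27.9 TPM in TB IL-2nil, 1105 ± 130.0 TPM in TB+ IL-2 and 1648 ± 68.8 TPM in TB+ IL-2nil. Its make-up differed between the groups without PMA/I. *Tnfrsf18* made up 45.9% ± 3.92 (SD, n = 3) of it in TB IL-2, and *Cd27* made up 34.1% ± 6.05 of it in TB IL-2nil. *Tnfrsf4* made up 49.4% ± 4.47 of it in TB+ IL-2 and 48.8% ± 6.76 in TB+ IL-2nil. *Tnfrsf8* held the lowest place in all 4 groups, at 0.224% or less on average. Within a group many neighbours in the order overlapped, for instance *Tnfrsf1b*, *Cd27*, *Tnfrsf9*, *Tnfrsf26*, *Tnfrsf1a*, *Tnfrsf25* and *Fas*, which follow each other in TB IL-2. No test was made of these sums and shares.

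**Figure D1:**
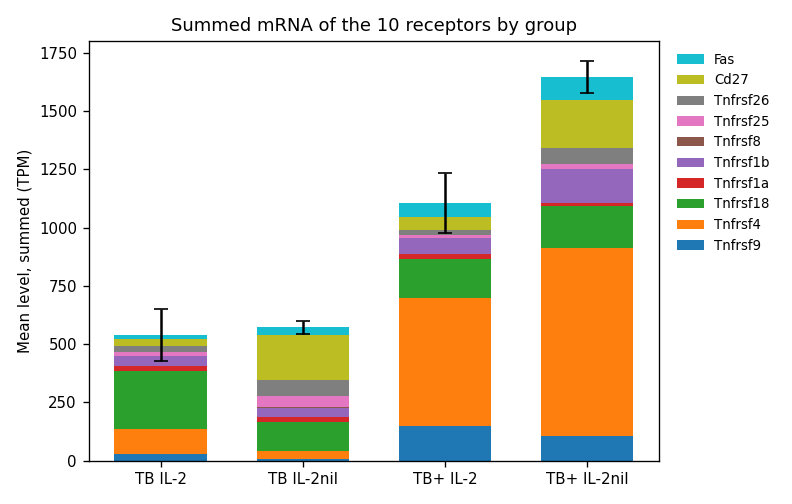
Mean level of each of the 10 receptors (TPM, stacked) in the 4 groups of 3 libraries. Bars carry the SD of the summed level over the libraries, and *Tnfrsf4* is the widest band in both PMA/I groups, *Tnfrsf18* in TB IL-2 and *Cd27* in TB IL-2nil.

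The first comparison asked what IL-2 maintained in cells that had not received PMA/I. In TB IL-2 against TB IL-2nil, *Tnfrsf9*, *Tnfrsf4* and *Tnfrsf18* were higher, and *Cd27*, *Tnfrsf26*, *Tnfrsf25* and *Fas* were lower. Thus 3 of the 10 passed an adjusted P under 0.05 as higher and 4 as lower (limma on log2(TPM + 1) of all 12 libraries, with Benjamini-Hochberg adjustment over 12442 genes), where 17.3% of all genes tested were higher and 22.3% lower. *Tnfrsf1a*, *Tnfrsf1b* and *Tnfrsf8* did not pass. The median difference was -0.01 over the 10 genes and -0.13 over all genes. Past 3-fold, which was judged on log2(TPM + 1) together with the adjusted P, while fold values printed for single genes are ratios of mean TPM, 1 was higher and 2 lower, where 4.69% and 2.73% of all genes were. Groups did not overlap for 6 of the 10, against 53.2% of all genes. By sample label, 0 of the 10 passed in limma (0.121% of all genes did), with 1 higher and 2 lower at an unadjusted P under 0.05, which 11.5% of all genes reached. Without both libraries of doubted label, 3 were higher and 3 lower (32.1% of all genes passed), and *Fas* did not pass.

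The next comparisons asked how the receptors responded to PMA/I. *Tnfrsf9*, *Tnfrsf4* and *Fas* rose both with and without IL-2, and *Tnfrsf1b* and *Tnfrsf18* passed as higher in the comparison without it. In TB+ IL-2 against TB IL-2, 3 of the 10 passed as higher and 0 as lower, where 11.8% and 23.3% of all genes passed (limma), and 3 were higher and 1 lower at an unadjusted P under 0.05, which 45% of all genes reached. With the replicate number as a block 4 passed as higher and 1 as lower, with 46.3% of all genes in either direction. In TB+ IL-2nil against TB IL-2nil, 5 passed as higher and 2, *Tnfrsf25* and *Tnfrsf1a*, as lower, where 20.1% and 41.1% of all genes passed. Past 3-fold, 3 were higher and 0 lower with IL-2 (3.94% and 3.1% of all genes), and 4 were higher and 0 lower without it (7.78% and 10.7%). The 10 genes had medians of 0.39 and 0.30, against -0.22 and -0.38 for all genes, and groups did not overlap for 4 and 7 of the 10, against 51.7% and 64.1% of all genes. By sample label, 0 of the 10 passed with IL-2 (0.498% of all genes; 1 higher and 1 lower at an unadjusted P under 0.05, beside 14% of all genes) and 1, *Fas*, without it (5.38%). Without both doubted libraries, 3 were higher with IL-2 (30.7% of all genes passed), and 4 were higher and 1 lower without it (53.4%).

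The balance of all genes depended on the scaling. Scaling libraries by the median of their ratios in place of the 75th percentile moved the median of all genes from -0.38 to -0.08 in TB+ IL-2nil against TB IL-2nil, and 49.8% of the genes called were then higher, against 32.8% here, 43.5% with quantile normalization and 17.6% with no scaling. With IL-2 the median went from -0.22 to -0.03 and the share from 33.6% to 53.2% (46.4% with quantile normalization). The gains of *Tnfrsf4*, *Tnfrsf9*, *Tnfrsf1b* and *Fas* over the median gene were 4.76, 4.58, 2.27 and 2.05 in log2 without IL-2. Relative to the median gene *Tnfrsf18* was at 0.93 and *Tnfrsf1a* at -0.42. Short non-coding RNAs took 16.6% to 53.2% of the FPKM of a library, with the highest share in TB+ IL-2nil replicate 1. With them left out, the median of all genes was -0.37 in TB+ IL-2nil against TB IL-2nil, and 33.7% of the genes called were higher. No count of receptors changed. Their part in these differences was not tested.

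The fourth comparison asked what IL-2 changed in cells that had received PMA/I. In TB+ IL-2 against TB+ IL-2nil, *Cd27* and *Tnfrsf26* were lower. Thus 0 of the 10 passed as higher and 2 as lower, where 12.9% and 8.4% of all genes passed (limma), and 1 was higher and 5 lower at an unadjusted P under 0.05, which 35.2% of all genes reached. With the replicate block 3 passed as lower, with 33.6% of all genes in either direction. Past 3-fold on log2(TPM + 1), 0 were higher and 1, *Cd27*, was lower, where 3.21% and 0.41% of all genes were, and *Tnfrsf26* was just short of it at -1.58. Groups did not overlap for 4 of the 10, against 37.2% of all genes. Of the genes called, 60.5% were higher here and 96.1% with no scaling. By sample label 0 passed (0.217% of all genes; 0 higher and 1 lower at an unadjusted P under 0.05, beside 17.5% of all genes), and without both doubted libraries *Cd27* alone did (9.62%).

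The interaction between IL-2 and PMA/I, which is the PMA/I difference with IL-2 less that without it, asked whether the response depended on IL-2. It was negative and passed for *Tnfrsf4* alone, as 1 of the 10, where 2.66% of all genes passed as negative and 1.57% as positive. It was past 3-fold, as for 1.28% of all genes (0.498% as positive), and 37.1% of the genes called were positive, against 22.8% with the median of ratios. With the replicate number as a block it also passed for *Tnfrsf9* and *Tnfrsf18*, so for 3, where 11.9% of all genes passed in either direction. By sample label and without both doubted libraries it passed for 0 of the 10 (0% and 0.0321% of all genes). Exchanging the 2 libraries leaves the interaction itself as it was (-2.02 for *Tnfrsf4* both ways), since both groups enter it with the same sign, and widens its SE from 0.34 to 1.58. At an unadjusted P under 0.05 the labels gave 1 negative (3.32% of all genes), where the placed groups gave 3 (23.1%). The 4 comparisons share groups with each other and with the interaction, so their values are not independent.

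**Figure D2:**
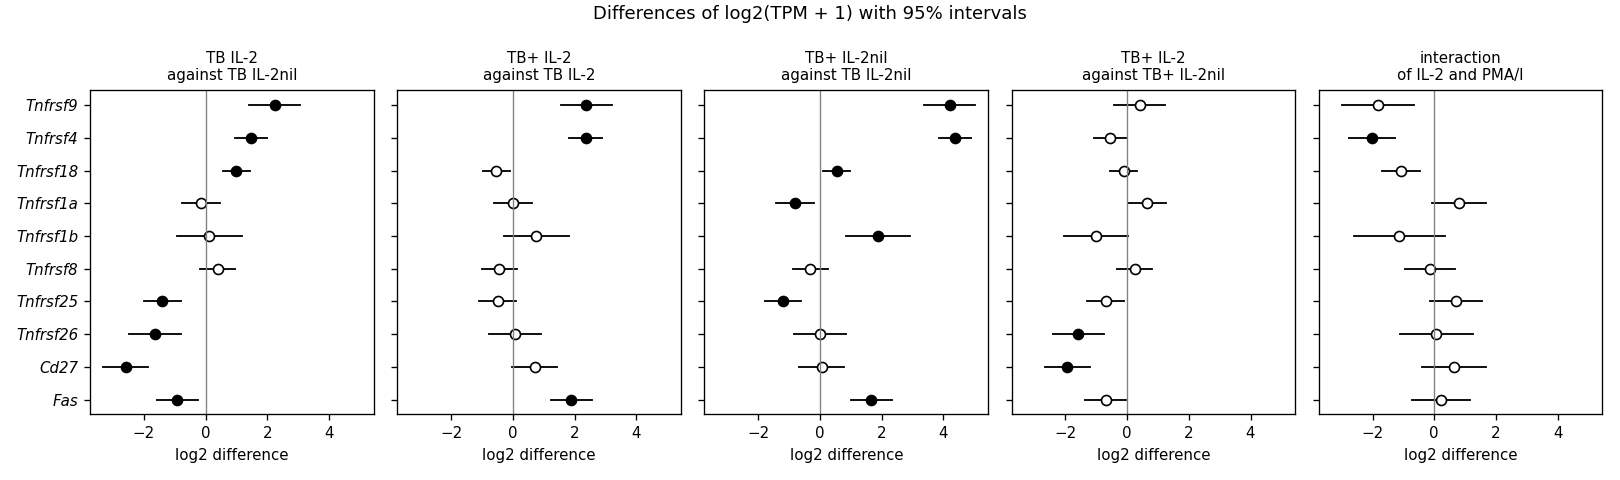
Differences of log2(TPM + 1) for the 10 receptors in 4 comparisons and in the interaction (x axis, log2 units, 3 libraries a group). Lines are 95% intervals from limma and filled points passed an adjusted P under 0.05. *Tnfrsf9*, *Tnfrsf4* and *Fas* did so in 3 comparisons, and *Cd27*, *Tnfrsf18*, *Tnfrsf25* and *Tnfrsf26* in 2.

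*Tnfrsf9* encodes 4-1BB (CD137), a costimulator that appears on T cells after activation. Its level was 25.6, 39.1 and 16.7 TPM in TB IL-2 and 4.85, 3.88 and 5.20 TPM in TB IL-2nil, in the order of replicates. It was 88.5, 227 and 129 TPM in TB+ IL-2 and 77.9, 149 and 92.9 TPM in TB+ IL-2nil. The groups without PMA/I did not overlap each other or those with it, and the TB+ groups overlapped. The mean was 5.84-fold higher with IL-2 than without it, a log2 difference of 2.25 (SE 0.38, adjusted P = 0.00115). PMA/I raised it 5.46-fold with IL-2 (2.38, SE 0.38, adjusted P = 0.000829) and 23.0-fold without it (4.21, SE 0.38, adjusted P = 6.97e-06). So the level after PMA/I was 1.39-fold higher with IL-2, which did not pass (0.42, SE 0.38, adjusted P = 0.464). The interaction was -1.83 (SE 0.53, adjusted P = 0.078, with the replicate block 0.0300 and with quantile normalization 0.0446). By sample label the log2 differences for *Tnfrsf9* were 0.78 (adjusted P = 0.871), 0.91 (0.818) and 2.74 (0.190), and without both doubted libraries 2.32 (0.0075), 2.42 (0.00552) and 4.28 (0.000156), in the order of the first 3 comparisons.

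*Tnfrsf4* encodes OX40, a costimulator of activated CD4 T cells. It was at 112, 139 and 73.9 TPM in TB IL-2 and at 38.7, 36.4 and 36.9 TPM in TB IL-2nil. After PMA/I it was at 596, 627 and 425 TPM with IL-2 and at 856, 906 and 655 TPM without it. As scaled, all 4 groups stood apart, with TB+ IL-2nil highest and TB IL-2nil lowest, while the 2 TB+ groups overlapped with no scaling between libraries (447 to 611 and 497 to 733 TPM). The mean was 2.90-fold higher in TB IL-2 than in TB IL-2nil (1.46, SE 0.24, adjusted P = 0.000983). PMA/I raised it 5.08-fold with IL-2 (2.36, SE 0.24, adjusted P = 4.53e-05) and 21.6-fold without it (4.38, SE 0.24, adjusted P = 3.33e-07). After PMA/I the difference with IL-2 was -0.56 (SE 0.24) and did not pass (adjusted P = 0.120, with the replicate block 0.0271, and -0.16 and 0.823 with no scaling). The interaction of *Tnfrsf4* was -2.02 (SE 0.34, adjusted P = 0.0161), and without both doubted libraries -1.84 (adjusted P = 0.0800) and with no scaling -1.55 (0.158). By sample label the first 3 differences of *Tnfrsf4* were 0.30 (adjusted P = 0.953), 1.20 (0.681) and 3.22 (0.0925), and without both libraries 1.45 (0.00516), 2.53 (0.000313) and 4.37 (1.24e-05).

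*Tnfrsf18* encodes GITR, a costimulator that activated and regulatory T cells carry, and is the neighbour of *Tnfrsf4*. Its level was 320.5, 253 and 178 TPM in TB IL-2, against 131, 111 and 126 TPM in TB IL-2nil. After PMA/I it was 186, 153 and 163 TPM with IL-2 and 186, 173 and 181 TPM without it. TB IL-2 was highest on average and overlapped TB+ IL-2nil and TB+ IL-2, and TB IL-2nil stood below the other 3 groups. With no scaling TB IL-2nil overlapped both TB+ groups and TB IL-2 neither. The mean was 2.04-fold higher with IL-2 in cells without PMA/I (0.99, SE 0.20, adjusted P = 0.00311), which did not pass with no scaling between libraries (0.90, adjusted P = 0.0682). With IL-2, PMA/I gave -0.54 (SE 0.20, adjusted P = 0.0555, with the replicate block 0.0276, and 0.0258 to 0.0471 with quantile normalization, a limma trend, a pseudocount of 5 or a filter of 1 TPM in 3 libraries). Without IL-2 it gave 0.55 (SE 0.20, adjusted P = 0.0321), which did not pass without both doubted libraries (0.57, adjusted P = 0.0786), by sample label (0.42, 0.272), with quantile normalization (0.11, 0.739) or without any one of 5 of the 6 libraries compared (TB IL-2nil replicate 2 or 3, or any TB+ IL-2nil library), and was -0.0031 with no scaling between libraries. The interaction of *Tnfrsf18* was -1.09 (SE 0.28, adjusted P = 0.0546, with the replicate block 0.0251, and 0.0300 to 0.0466 with the median of ratios, a pseudocount of 5 or a limma trend). By sample label the difference between TB IL-2 and TB IL-2nil was 0.86 (adjusted P = 0.247), and without both libraries 1.003 (0.0158).

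The ratio of *Tnfrsf4* to *Tnfrsf18*, both in TPM, was below 1 in each library without PMA/I and above 1 in each library with it. It was 0.438 ± 0.102 (SD, n = 3) in TB IL-2 and 0.305 ± 0.0192 in TB IL-2nil. It was 3.29 ± 0.746 in TB+ IL-2 and 4.49 ± 0.815 in TB+ IL-2nil, with a lowest library at 2.60 and a highest at 5.25. The 2 neighbouring genes thus differed in their response to PMA/I, and no test of this ratio was made.

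**Figure D3:**
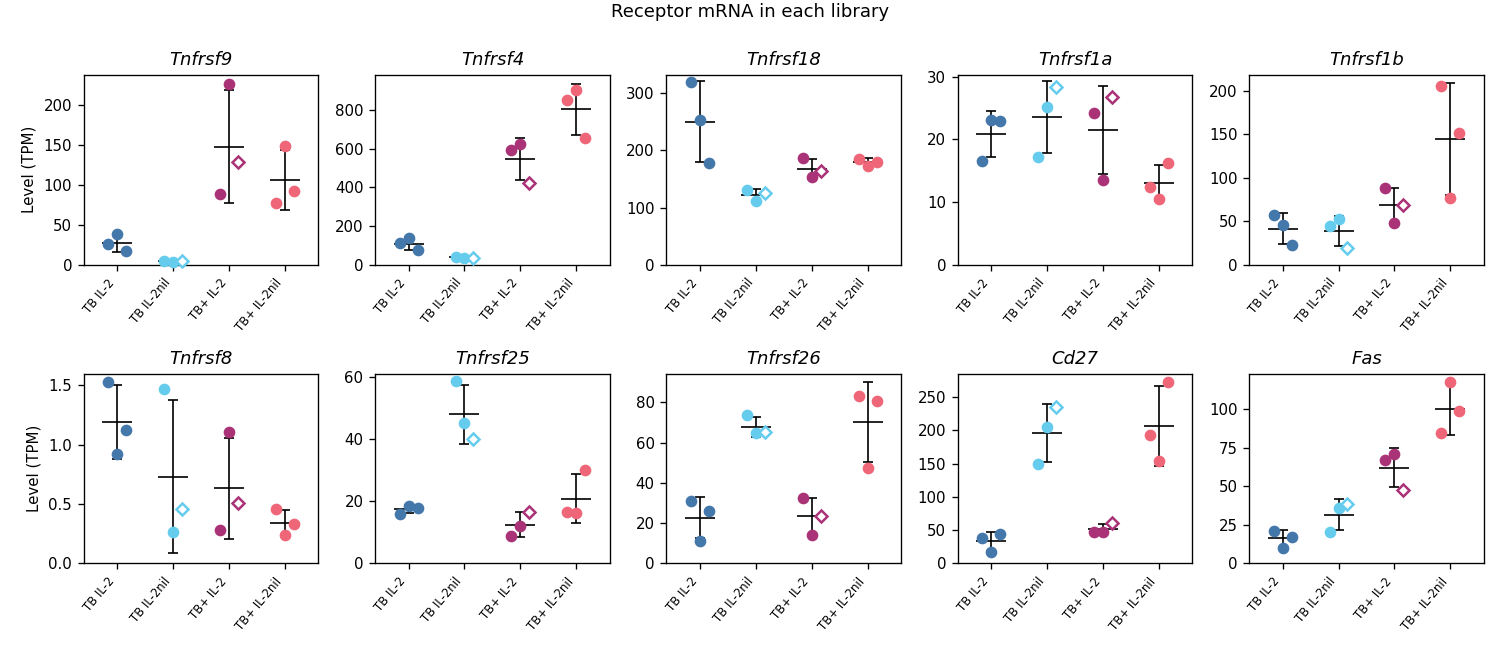
Level of each receptor (y axis, TPM scaled to a common 75th percentile, from 0) in the 3 libraries of each group (x axis). Bars are the mean and SD, open diamonds are the 2 libraries placed against their label, and all 6 TB+ libraries stand above the other 6 for *Tnfrsf9*, *Tnfrsf4* and *Fas*.

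*Cd27* encodes a costimulator of naive and recently activated T cells, which B cells can also carry, and its difference with IL-2 was the most negative among the 10. Its level was 38.5, 17.4 and 44.4 TPM in TB IL-2 and 149, 204 and 235 TPM in TB IL-2nil. After PMA/I it was 46.9, 47.9 and 60.5 TPM with IL-2 and 193, 153 and 272 TPM without it. Both groups with IL-2 lay below both groups without it. The mean was 5.86-fold higher in TB IL-2nil than in TB IL-2 (-2.59 for TB IL-2, SE 0.33, adjusted P = 0.000275) and 3.99-fold higher in TB+ IL-2nil than in TB+ IL-2 (-1.94, SE 0.33, adjusted P = 0.00269). The PMA/I difference of *Cd27* did not pass with or without IL-2. It was 0.71 with IL-2 (SE 0.33, adjusted P = 0.122, with the replicate block 0.0440, with the median of ratios 0.95 and 0.0446). Without IL-2 it was 0.06 (95% interval -0.67 to 0.79, adjusted P = 0.894). The 2 IL-2 differences of *Cd27* were -1.95 (adjusted P = 0.290) and -1.30 (0.349) by sample label, and -2.45 (0.00313) and -2.06 (0.0166) without both doubted libraries.

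Markers of B cells moved with *Cd27* between the groups without PMA/I. The summed level of *Cd79a*, *Cd79b* and *Ms4a1* was 8.86, 9.74 and 5.05 TPM in TB IL-2 and 20.4, 26.6 and 21.8 TPM in TB IL-2nil, and all 3 genes passed as lower with IL-2, as 22.3% of all genes did. After PMA/I the sum was 2.09 to 2.81 TPM with IL-2 and 4.74 to 12.1 TPM without it, and all 3 passed as lower with IL-2 (8.4% of all genes), but 0 of the 3 without both doubted libraries. By sample label 0 of the 3 passed in each comparison. In TB IL-2nil *Cd79b* was at 8.38 to 15.1 TPM and *Cd79a*, the most abundant over all libraries, at 7.75 to 9.04 TPM, where *Cd27* was at 149 to 235 TPM, and none of the 3 was at 0 in any library. These 3 B cell markers also passed as lower in TB+ IL-2nil than in TB IL-2nil (summed means of 7.69 and 23.0 TPM), as did 41.1% of all genes, while *Cd27* was at 206 and 196 TPM in these groups. The part of B cells in the *Cd27* result was not tested, and in bulk RNA fewer cells of a type and less RNA per cell cannot be told apart. The CD4 T cell list holds *Cd3d*, *Cd3e*, *Cd3g*, *Cd4* and *Cd28*, which summed to 1068 TPM or more in each library. Of these 5 genes 4 passed as lower in TB IL-2 than in TB IL-2nil and 0 as higher (22.3% and 17.3% of all genes). By sample label 0 of the 5 passed. *Cd4* and *Cd3d* differed by -1.30 and -0.93 in log2, where the median of the 5 was -0.93.

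*Tnfrsf26* encodes a relative of the TRAIL decoy receptors *Tnfrsf22* and *Tnfrsf23*, and its log2 level had a Pearson correlation of 0.92 with that of *Cd27* over the 12 libraries. It was at 31.1, 11.4 and 25.8 TPM in TB IL-2 and at 73.7, 64.9 and 65.5 TPM in TB IL-2nil. After PMA/I it was at 32.6, 14.0 and 23.6 TPM with IL-2 and at 83.3, 47.3 and 80.5 TPM without it. Both groups with IL-2 again lay below both groups without it, though TB IL-2 and TB+ IL-2nil overlapped with no scaling. It was lower with IL-2, 2.99-fold without PMA/I (-1.65, SE 0.38, adjusted P = 0.00605) and 3.01-fold with it (-1.58, SE 0.38, adjusted P = 0.0142). The second difference did not pass without both doubted libraries (-1.62, adjusted P = 0.0630), with no scaling (-1.19, 0.141), without TB+ IL-2 replicate 2 (-1.27, 0.0544) or without TB+ IL-2nil replicate 1 (-1.44, 0.0571). By sample label the 2 differences of *Tnfrsf26* were -1.17 (adjusted P = 0.494) and -1.10 (0.391).

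*Tnfrsf25* encodes death receptor 3, which in T cells acts as a costimulator for the ligand TL1A. Its level was 16.0, 18.4 and 17.8 TPM in TB IL-2, 58.6, 45.3 and 40.1 TPM in TB IL-2nil, 8.75, 11.9 and 16.6 TPM in TB+ IL-2 and 16.6, 16.2 and 29.9 TPM in TB+ IL-2nil. TB IL-2nil stood above the other 3 groups, which overlapped along their order. It was 2.76-fold lower with IL-2 than without it (-1.40, SE 0.27, adjusted P = 0.00244), and PMA/I lowered it 2.30-fold in cells without IL-2 (-1.20, SE 0.27, adjusted P = 0.00263). With IL-2 the PMA/I difference was -0.49 (SE 0.27, adjusted P = 0.183), and the interaction of 0.71 (SE 0.38) did not pass (adjusted P = 0.293). By sample label the first 2 of these differences of *Tnfrsf25* were -0.99 (adjusted P = 0.541) and -0.79 (0.329), and without both libraries -1.52 (0.0053) and -1.32 (0.00387).

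*Fas* encodes the death receptor CD95, through which activated T cells are removed. It was at 21.3, 10.2 and 17.4 TPM in TB IL-2 and at 20.3, 36.2 and 38.7 TPM in TB IL-2nil, and these groups overlapped. After PMA/I it was at 67.1, 71.2 and 47.6 TPM with IL-2 and at 84.4, 118 and 98.7 TPM without it, above both groups without PMA/I. PMA/I raised it 3.80-fold with IL-2 (1.90, SE 0.30, adjusted P = 0.000867) and 3.16-fold without it (1.67, SE 0.30, adjusted P = 0.000656), and the interaction was 0.23 (95% interval -0.71 to 1.17, adjusted P = 0.783). *Fas* was the single member that passed by sample label, at 1.57 (adjusted P = 0.0432) without IL-2, and was at 1.80 (0.0660) with it. Without both doubted libraries these were 1.83 (0.00172) and 2.07 (0.00247). The lower level with IL-2 than without it in cells without PMA/I (-0.92, SE 0.30, adjusted P = 0.0317) did not pass by sample label (-1.02, 0.326), without both doubted libraries (-0.76, 0.108), with no filter (-0.88, 0.0626), with no scaling (-0.99, 0.0877), in a fit of the 2 groups alone (-0.92, 0.0885), or without TB IL-2 replicate 2 (-0.64, 0.128), TB IL-2 replicate 3 (-0.996, 0.0559), TB IL-2nil replicate 2 (-0.80, 0.0990) or TB IL-2nil replicate 3 (-0.76, 0.104).

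*Tnfrsf1b* and *Tnfrsf1a* encode the 2 receptors of TNF, of which the first has no death domain and costimulates T cells, and the second has one and is found on most cells. *Tnfrsf1b* was at 57.2, 45.4 and 22.1 TPM in TB IL-2, 45.0, 52.3 and 18.7 TPM in TB IL-2nil, 88.4, 48.3 and 68.3 TPM in TB+ IL-2 and 206, 76.9 and 151 TPM in TB+ IL-2nil. Only TB IL-2nil and TB+ IL-2nil, among the 4 comparisons of groups, did not overlap for it, and they did with no scaling. PMA/I raised it 3.74-fold without IL-2 (1.89, SE 0.48, adjusted P = 0.00519; by sample label 1.28, 0.146; without both libraries 1.45, 0.0340). With IL-2 the difference of *Tnfrsf1b* was 0.76 (SE 0.48, adjusted P = 0.239), and the interaction was -1.13 (95% interval -2.61 to 0.35, adjusted P = 0.344). *Tnfrsf1a* lay between 10.5 and 28.4 TPM in the 12 libraries. Its mean was 20.9 ± 3.71 TPM (SD, n = 3) in TB IL-2, 23.6 ± 5.77 TPM in TB IL-2nil, 21.5 ± 7.03 TPM in TB+ IL-2 and 13.1 ± 2.93 TPM in TB+ IL-2nil. The lower level of *Tnfrsf1a* in TB+ IL-2nil than in TB IL-2nil (-0.80, SE 0.28, adjusted P = 0.0276) did not pass with scaling by the median of ratios (-0.42, adjusted P = 0.224), with quantile normalization (-0.47, 0.182), with no filter (-0.61, 0.117), by sample label (-0.77, 0.124), without both doubted libraries (-0.65, 0.0947), or without TB IL-2nil replicate 2 (-0.74, 0.0756), TB IL-2nil replicate 3 (-0.66, 0.0958), TB+ IL-2nil replicate 1 (-0.77, 0.0672) or TB+ IL-2nil replicate 2 (-0.67, 0.0944). In TB+ IL-2 against TB+ IL-2nil the difference of *Tnfrsf1a* was 0.64 (SE 0.28, adjusted P = 0.125), which passed without TB+ IL-2 replicate 2 (0.93, 0.0374).

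*Tnfrsf8* encodes CD30, a receptor of activated lymphocytes, and was near the limit of what was kept. It ranged from 0.242 to 1.53 TPM in the 12 libraries, and all 4 groups overlapped along their order, from TB IL-2 (1.19 ± 0.309 TPM) to TB+ IL-2nil (0.344 ± 0.110 TPM). It passed in 0 of the 4 comparisons (limma) and in 0 at an unadjusted P under 0.05, though in TB IL-2 against TB IL-2nil it passed without TB IL-2nil replicate 1 (0.67, adjusted P = 0.0431, against 0.39, 0.246). On the log2(TPM + 1) scale changes of so low a gene are understated.

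Among markers of other cell types, *Foxp3* and those of CD8, myeloid and NK cells were at low levels. The regulatory T cell gene *Foxp3* was at 0.0807 to 1.68 TPM in the 12 libraries, while *Tnfrsf18*, *Tnfrsf4* and *Tnfrsf9*, which these cells also carry, had the levels given above. The regulatory list (*Foxp3*, *Ikzf2*, *Lrrc32*, *Ctla4* and *Il2ra*), most of which activated T cells also express, summed to 291 to 846 TPM in TB IL-2, 105 to 251 TPM in TB IL-2nil, 671 to 974 TPM in TB+ IL-2 and 669 to 795 TPM in TB+ IL-2nil. Of this list *Il2ra* was the most abundant over all libraries, while in TB IL-2nil the mean of *Ctla4* was higher (105 TPM, against 71.3 TPM for *Il2ra*). In TB IL-2 against TB IL-2nil 2 of the 5 genes of the list, *Il2ra* and *Lrrc32*, passed as higher and *Ctla4* as lower (17.3% and 22.3% of all genes), with the replicate block *Ikzf2* as well (50.8% in either direction), and by sample label 0 passed. In TB+ IL-2 against TB+ IL-2nil 0 of the 5 passed (limma, also with the block), and none was at 0 in any library. With PMA/I 0 of the 5 were higher and 1 lower in IL-2 (11.8% and 23.3% of all genes), and 1 higher and 0 lower without it (20.1% and 41.1%). With the block these were 1 and 2 in IL-2 and 2 and 0 without it (46.3% and 69.1% in either direction). In the interaction 2 passed as negative (2.66% of all genes), also with the block (11.9% in either direction). By sample label and without both doubted libraries 0 did (0% and 0.0321%). The CD8 genes *Cd8a* and *Cd8b1* summed to 6.91 to 31.9 TPM, with 0 of 2 passing in the 4 comparisons (limma). Of 5 myeloid markers 3 were kept (*Cd68*, *Itgam* and *Adgre1*), and the 5 summed to 1.74 to 4.88 TPM. *Lyz2* was listed at 0 in 9 libraries. Of the 3 NK cell markers 0 were kept, and they summed to 0.303 TPM or less, with *Ncr1* listed at 0 in all 12 libraries. The part of these cells in the receptor results was not tested.

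Each receptor was also set beside the genes whose log2 levels were most like its own over the 12 libraries, which is a description of genes that share these libraries. *Tnfrsf4* was most like *Pwp1*, *Hivep3* and *Spry1* (Pearson correlation 0.99 each), and *Tnfrsf9* was most like *Thoc1*, *Larp1b* and *Azin1* (0.98, 0.98 and 0.97). *Fas* was most like *Ptpn22*, *4930417O13Rik* and *Gramd1b* (0.96 each), and *Tnfrsf1b* most like *F2r*, *Myo1c* and *Rhof* (0.96, 0.93 and 0.93). *Cd27* was nearest to *A930024E05Rik*, *Phlpp1* and *Wdr26* (0.98, 0.97 and 0.96), *Tnfrsf25* to *Pink1*, *Atp6v1d* and *Ttyh3* (0.97, 0.96 and 0.96), and *Tnfrsf26* to *Gm10638*, *Leng8* and *Grap* (0.96 each). The likeness was weaker for *Tnfrsf18* (*P2rx2*, 0.89, *Fsd1l*, 0.88, and *Tgm2*, 0.88), *Tnfrsf1a* (*Anxa11*, 0.86, *Lrpap1*, 0.86, and *Ddt*, 0.85) and *Tnfrsf8* (*Calca*, 0.91, *Thrb*, 0.88, and *Wdr25*, 0.87). Among the 10 receptors the highest correlation was that of *Tnfrsf9* and *Tnfrsf4*, at 0.95, while *Tnfrsf4* and its neighbour *Tnfrsf18* had 0.30.

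Ligands of the receptors rose with PMA/I. Of 9 ligand genes 7 were kept, and *Tnfsf18* and *Tnfsf15*, the ligands of GITR and of death receptor 3, were not. With IL-2, 6 of the 7 passed as higher with PMA/I and 0 as lower (11.8% and 23.3% of all genes), with a median log2 difference of 3.61, and without IL-2 all 7 passed as higher (20.1% of all genes), with a median of 4.08. *Tnfsf9*, the ligand of 4-1BB, was at 2.58 to 6.23 TPM in the 6 libraries without PMA/I and at 82.2 to 218 TPM in the 6 with it (4.55, SE 0.27, with IL-2, and 5.26, SE 0.27, without it). *Tnfsf4*, the ligand of OX40, was at most 4.66 TPM without PMA/I and reached 8.02 to 27.9 TPM in TB+ IL-2 and 7.57 to 11.5 TPM in TB+ IL-2nil (2.58, SE 0.53, and 1.80, SE 0.53). Levels of the receptor *Tnfrsf4* were thus higher than those of its ligand in all 12 libraries.

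*Fasl*, the ligand of Fas, was at 9.65 to 29.0 TPM without PMA/I, at 129 to 192 TPM in TB+ IL-2 and at 282 to 407 TPM in TB+ IL-2nil (3.61, SE 0.34, and 4.08, SE 0.34). *Tnfsf8*, the ligand of CD30, was at 16.2 to 70.4 TPM without PMA/I and at 506 to 2242 TPM with it (5.34, SE 0.56, and 4.39, SE 0.56), although its receptor *Tnfrsf8* stayed at 1.53 TPM or less. *Tnf* was at 30.7, 80.6 and 59.7 TPM in TB IL-2 and at 3.99, 4.78 and 9.35 TPM in TB IL-2nil, and reached 1146 to 4623 TPM after PMA/I. *Lta*, which binds the same receptors as TNF, was at 49.6, 110.2 and 35.6 TPM in TB IL-2 and at 12.3, 9.54 and 16.6 TPM in TB IL-2nil. These 2 were the ligands that passed as higher with IL-2 before PMA/I, as 2 of 7 with 0 lower, beside 17.3% and 22.3% of all genes (*Tnf* 3.01, SE 0.52, adjusted P = 0.00144; *Lta* 2.13, SE 0.35, adjusted P = 0.00102). *Lta* rose 2.91 (SE 0.35) with PMA/I without IL-2 and 1.20 (SE 0.35, adjusted P = 0.0210) with it. *Cd70*, the ligand of CD27, was listed at 0 in all 3 TB IL-2 libraries and was at most 3.61 TPM. *Cd70* was 1.08 (SE 0.38) higher with PMA/I without IL-2 and 0.89 (SE 0.38, adjusted P = 0.0914) with it. TB+ IL-2 against TB+ IL-2nil gave 0 higher and 0 lower of the 7 (limma; 12.9% and 8.4% of all genes), and 2 lower (*Tnfsf9* and *Fasl*) with the replicate block, where 33.6% of all genes passed in either direction. Grouped by sample label, 0 of the 7 passed in each comparison, and without both doubted libraries the counts were the same as here.

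**Figure D4:**
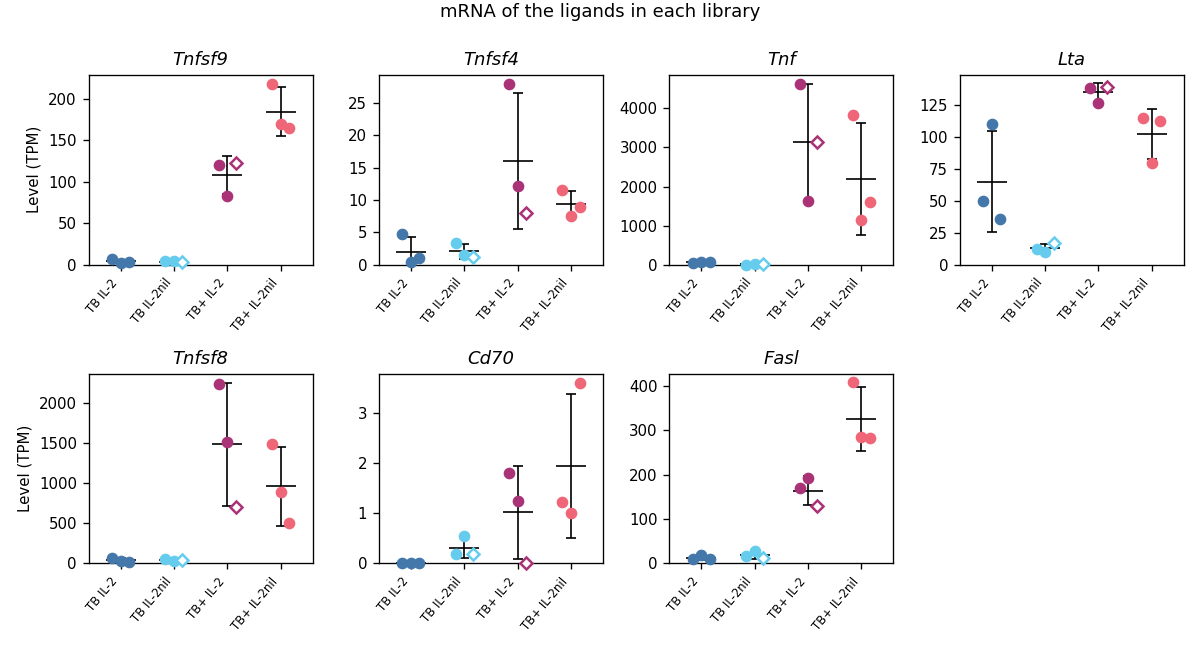
Level of 7 ligand genes (y axis, TPM scaled to a common 75th percentile, from 0) in the 3 libraries of each group (x axis), with the mean and SD as bars and open diamonds for the 2 libraries placed against their label. Levels of *Tnfsf9*, *Tnf*, *Tnfsf8* and *Fasl* in the 6 TB+ libraries lie above those of the other 6.

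The superfamily has 18 other receptors on the list, such as *Tnfrsf14* (HVEM) and *Cd40*. Of 12 that were kept, 0 were higher and 2 lower with IL-2 without PMA/I (17.3% and 22.3% of all genes), and 2 were higher and 2 lower with PMA/I in IL-2 (11.8% and 23.3%). With PMA/I without IL-2, 4 were higher and 3 lower (20.1% and 41.1%), and with IL-2 after PMA/I 0 were higher and 2 lower (12.9% and 8.4%). Past 3-fold on log2(TPM + 1) with an adjusted P under 0.05 were *Tnfrsf21*, death receptor 6 (2.33, SE 0.41, adjusted P = 0.000556), and *Tnfrsf12a*, the receptor of TWEAK (1.59, SE 0.35, adjusted P = 0.00252), both higher in TB+ IL-2nil than in TB IL-2nil. This scale understates low genes such as *Tnfrsf19*, which was at 0.168 TPM or less without PMA/I and at 1.03 to 1.83 TPM with it, and *Cd40*, at a mean of 0.454 TPM in TB+ IL-2 and 2.86 TPM in TB+ IL-2nil. The sample labels gave 0 of the 12 as passing in each comparison. With the replicate block 1 was higher and 3 lower with IL-2 without PMA/I (50.8% of all genes in either direction), 5 in place of 2 were higher with PMA/I in IL-2 (46.3%) and 5 in place of 4 without it (69.1%), and 1 was higher and 5 lower with IL-2 after PMA/I (33.6%). Without both doubted libraries 0 passed in the last of these, and 1 was higher and 1 lower with PMA/I in IL-2. *Tnfrsf11a*, *Tnfrsf11b*, *Tnfrsf17*, *Ltbr*, *Ngfr* and *Edar* were not kept.

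Below the receptors, some TRAF genes rose with PMA/I and 3 of 5 genes of death domain signalling fell. Over all genes, 11.8% were higher and 23.3% lower with PMA/I in IL-2, and 20.1% and 41.1% without it. Of 6 TRAF genes, 3 were higher with PMA/I in IL-2 and 4 higher and 1 lower without it, and *Traf1*, which binds other TRAF proteins and is a target of NF-kB, was past 3-fold with IL-2 (1.87, SE 0.29, adjusted P = 0.000716). With the replicate block 4 TRAF genes were higher in IL-2 (46.3% of all genes in either direction). Of the 5 genes for death domain adaptors and the control of caspase-8, 1 rose and 3 fell with PMA/I in both comparisons, and 4 fell in IL-2 with the replicate block (46.3% of all genes in either direction). The gene that rose was *Cflar*, which encodes the caspase-8 inhibitor c-FLIP (2.26, SE 0.29, with IL-2, and 1.89, SE 0.29, without it), and *Fadd*, the adaptor of Fas, fell by 1.76 (SE 0.16) and by 1.69 (SE 0.16) in log2. Of 7 ubiquitin ligases and kinases, 0 were higher and 5 lower with IL-2 without PMA/I (17.3% and 22.3% of all genes), among them *Map3k14*, the kinase NIK of the non-canonical NF-kB pathway (-1.79, SE 0.31, adjusted P = 0.00134). With PMA/I 2 were higher and 2 lower in IL-2, and 3 higher and 2 lower without it. The replicate block gave 3 higher and 2 lower in IL-2, and 3 higher and 3 lower without it (46.3% and 69.1% of all genes in either direction). *Birc3*, the ubiquitin ligase c-IAP2, rose by 1.71 (SE 0.20) with IL-2. *Ikbkg*, the subunit NEMO of the IkB kinase, fell by 1.72 (SE 0.16) without IL-2. Each moved the same way in the other comparison. In mean TPM *Birc3* rose 3.36-fold with IL-2 and 2.20-fold without it, and *Ikbkg* fell 2.39-fold and 3.65-fold. By sample label 1 of 6 TRAF genes passed as higher with PMA/I in each comparison, 0 of the 5 death domain genes passed in either, and 1 kinase or ligase was higher in IL-2 and 0 without it. In the 2 IL-2 comparisons, before and after PMA/I, the labels gave 0 of the 6 TRAF genes and 0 of the 7 ligases and kinases (0.121% and 0.217% of all genes). Without both doubted libraries 1 in place of 3 of the 7 was higher with PMA/I without IL-2, and 1 in place of 2 in IL-2. With IL-2 before PMA/I, TRAF genes gave 0 higher and 2 lower, and 4 lower with the replicate block, where 50.8% of all genes passed in either direction. With IL-2 after PMA/I, where 12.9% of all genes were higher and 8.4% lower, 0 were higher and 2 lower of the TRAF genes and 3 lower of the ligases and kinases, and 4 and 5 were lower with the block (33.6% of all genes in either direction), while 0 of either passed without both doubted libraries.

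The CD28 family and inhibitory receptors are another set of costimulators and their counterparts. Of 11 such genes, 0 were higher and 5 lower with IL-2 without PMA/I (17.3% and 22.3% of all genes), where the TNF receptors had 3 and 4 of 10, and 7 of the 11 were lower with the replicate block (50.8% of all genes in either direction). With PMA/I, 8 were higher and 1 lower in IL-2 (11.8% and 23.3% of all genes), and 6 higher and 1 lower without it (20.1% and 41.1%). By sample label 0, 0 and 3 of the 11 passed in these comparisons, and without both doubted libraries 2, 9 and 7 did. The median log2 differences of the 11 were -0.70, 1.33 and 0.86 in the first 3 comparisons, beside -0.01, 0.39 and 0.30 for the 10 TNF receptors. *Havcr2*, which encodes the inhibitory receptor TIM-3 (5.02, SE 0.31, with IL-2), and *Pdcd1*, which encodes PD-1 (5.21, SE 0.58, with IL-2), rose further in log2 than any of the 10 receptors did in that comparison. The other genes past 3-fold with IL-2 were *Btla*, which encodes an inhibitory receptor that binds HVEM (2.02, SE 0.33, adjusted P = 0.000934), and *Lag3*, which encodes an inhibitory receptor for MHC class II (2.08, SE 0.36, adjusted P = 0.00138). Without IL-2, *Havcr2* (5.27, SE 0.31), *Pdcd1* (4.81, SE 0.58) and *Btla* (3.02, SE 0.33) were past 3-fold higher with PMA/I. The costimulator *Cd226* was past 3-fold lower there, at a mean of 50.7 TPM in TB IL-2nil and 9.60 TPM in TB+ IL-2nil (-2.27, SE 0.25, adjusted P = 2.5e-05). *Ctla4* was past 3-fold lower with IL-2 without PMA/I (-2.20, SE 0.64, adjusted P = 0.0186). No test of the difference between these lists was made.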

How the data were processed

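The authors sequenced 12 directional libraries of rRNA-depleted RNA. Per the labels and the methods, reads were trimmed with Trimmomatic 0.32, aligned to mm9 with HISAT2 2.1.0 and quantified on RefSeq models with StringTie 1.3.3. The deposited values are FPKM, where the methods name TPM, and the FPKM of a library sum to 193815 to 420487. Without counts, neither counting errors nor limits of detection could be computed here.

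Each library was rescaled to 1000000 TPM, genes that exceeded 1 TPM in any library were kept, and libraries were scaled to a common 75th percentile. Differences of log2(TPM + 1), which understate changes of low genes, were fitted with limma 3.58.1 (R 4.3.3) in 4 groups with 8 residual degrees of freedom, no block and no trend, after a test on simulated data. Python 3.11.15, pandas 2.3.3 and matplotlib 3.10.9 served for the rest. P-values were adjusted by Benjamini-Hochberg over 12442 genes and called under 0.05, and the study's rule adds a 3-fold change.

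All 10 receptors were named, and listed genes were named where they passed both thresholds, with the 3 most correlated genes of each receptor. Further genes (all ligands kept, *Cd4* and *Cd3d*) were named after their values were seen, as were the sequences. The members and lists were chosen with earlier results of these data known. A further marker of the B cell list is not reported here, and the sums and counts of that list leave it out. Same-numbered libraries deviated together from their group means in all 18 pairs (correlations from 0.101 to 0.531), while by sample label 11 of 18 were over 0.1, and no source says what a number shares. Alternatives were other filters, pseudocounts, scalings, groupings, a trend, the replicate block and leaving out each library.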

Additional observations from a re-analysis of the deposited data

Results flagged for a closer look

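The response of *Tnfrsf4* to PMA/I differed between cells with and without IL-2 by -2.02 in log2(TPM + 1) (limma interaction, SE 0.34, adjusted P = 0.0161, n = 3 libraries a group). The mean rose from 108 to 549 TPM with IL-2 and from 37.3 to 806 TPM without it, and the interaction did not pass without both libraries of doubted label (-1.84, adjusted P = 0.0800), by sample label (-2.02, 0.914) or with no scaling between libraries (-1.55, 0.158).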

How the results depend on the processing

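Of 1000 values of single receptors under the alternatives, 895 kept their direction and their side of the threshold. A further 49 lost the threshold, 18 gained it and 38 turned sign. Results that had not passed and stayed so count among the 895, and all 49 losses fell on results that had passed. 

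By sample label, 0 receptors passed in TB IL-2 against TB IL-2nil (3 higher and 4 lower as placed), 0 in TB+ IL-2 against TB IL-2 (3 higher), 1 higher and 0 lower in TB+ IL-2nil against TB IL-2nil (5 and 2), 0 in TB+ IL-2 against TB+ IL-2nil (2 lower) and 0 in the interaction (1 lower). Without both doubted libraries 0 passed in the interaction, and 1 was lower in each of the comparisons TB+ IL-2 against TB+ IL-2nil and TB+ IL-2nil against TB IL-2nil. In this setting 4 in place of 5 were higher in TB+ IL-2nil against TB IL-2nil, and 3 in place of 4 were lower in TB IL-2 against TB IL-2nil. In TB+ IL-2 against TB IL-2, 1 receptor (*Tnfrsf18*) instead of 0 was lower with the replicate block, a limma trend, a pseudocount of 5, quantile normalization or a filter of 1 TPM in 3 libraries. In TB+ IL-2 against TB+ IL-2nil 1 was lower with no scaling. In TB+ IL-2nil against TB IL-2nil 1 was lower with no filter, quantile normalization or the median of ratios. The interaction gave 2 negative with a limma trend, a pseudocount of 5, quantile normalization or the median of ratios, 3 with the replicate block and 0 with no scaling. The replicate block changed no call of the 10 receptors other than the 5 given in the report. Leaving out 1 library at a time gave 0 to 1 lower in TB+ IL-2 against TB IL-2 (1 without TB IL-2 replicate 3), 0 to 1 higher and 1 to 2 lower in TB+ IL-2 against TB+ IL-2nil (*Tnfrsf1a* higher and 1 lower without TB+ IL-2 replicate 2), 1 to 2 lower in TB+ IL-2nil against TB IL-2nil and 1 to 2 negative in the interaction (2 without TB IL-2 replicate 3). The calls of *Fas* and *Tnfrsf18* that were lost without 1 library are given with these genes above.

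Of the values that turned sign, 1 (*Tnfrsf18* in TB+ IL-2nil against TB IL-2nil) had passed the threshold. With no scaling *Cd27* and *Tnfrsf26* were at -0.49 and -0.54 in TB+ IL-2nil against TB IL-2nil, *Tnfrsf18* at -0.0031 there and 0.29 in TB+ IL-2 against TB+ IL-2nil, and *Tnfrsf26* at -0.0077 in TB+ IL-2 against TB IL-2. With quantile normalization *Cd27* and *Tnfrsf26* were at -0.44 and -0.23 in TB+ IL-2nil against TB IL-2nil, where *Tnfrsf26* was at -0.019 without both doubted libraries and at -0.010 with the filter of 1 TPM in 3 libraries. *Tnfrsf1a* in TB+ IL-2 against TB IL-2 was at 0.024 by sample label, 0.23 with the median of ratios, 0.14 with no filter, 0.0033 with a pseudocount of 5, 0.17 with quantile normalization and 0.0086 without short RNAs. *Tnfrsf1b* in TB IL-2 against TB IL-2nil was at -0.32 without both doubted libraries and -0.48 by sample label, *Tnfrsf26* in the interaction at -0.090 with the median of ratios, and *Tnfrsf9* in TB+ IL-2 against TB+ IL-2nil at -1.05 by sample label. Without 1 library, ranges that crossed 0 were -0.16 to 0.25 (*Cd27*) and -0.14 to 0.27 (*Tnfrsf26*) in TB+ IL-2nil against TB IL-2nil, -0.18 to 0.29 (*Tnfrsf1a*) and -0.34 to 0.39 (*Tnfrsf26*) in TB+ IL-2 against TB IL-2, -0.32 to 0.51 (*Tnfrsf1b*) in TB IL-2 against TB IL-2nil, and -0.054 to 0.51 (*Fas*), -0.35 to 0.38 (*Tnfrsf26*) and -0.42 to 0.058 (*Tnfrsf8*) in the interaction.

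Over all genes, 4929, 4372, 7614, 2644 and 526 passed in the 4 comparisons and the interaction. By sample label these were 15, 62, 669, 27 and 0. With no scaling 2650, 2434, 1486 and 1 passed in 4 of these (not in TB+ IL-2nil against TB IL-2nil, which moved less), with the block 4186 and 1478 in the last 2, and without both doubted libraries 1197 and 4. The fourth gave 1503 in a fit of its own groups and at least 1427 without 1 library. The interaction gave 241 and 842 with pseudocounts of 0.1 and 5, and 84 (without TB IL-2nil replicate 2) to 1302 (without TB+ IL-2nil replicate 3) without 1 library. The cause of these changes was not tested. The replicate number is a block by likeness of the libraries and not by any stated origin.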
